A study of Mus musculus with 3 samples.

Results

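Interferon response genes are genes whose transcripts accumulate when a cell senses an interferon. A list of 41 such genes was read in mouse ear skin by sequencing the RNA of single cells, and 40 of them had a row among the 31053 genes counted. The 41st, Mx2, was not analysed here. The list was divided by its usual reading into 10 type I-type members (Ifit1, Ifit2, Ifit3, Ifit3b, Oas1a, Oas2, Oas3, Oasl1, Oasl2 and Mx1), 9 gamma-type members (Gbp2, Gbp3, Gbp4, Gbp5, Gbp7, Irgm1, Irgm2, Igtp and Iigp1), 4 transcription factors (Irf1, Irf7, Irf9 and Stat2), 3 nucleic acid sensors (Ifih1, Ddx58 and Zbp1), 2 chemokines (Cxcl9 and Cxcl10) and 12 other effectors. The names type I-type and gamma-type describe which interferon each family is best known to answer, and many members answer both.

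There were 3 libraries, 1 for each condition. Young WT was C57BL/6J ear skin at 4 weeks of age, pooled from 5 males and 3 females. Adult WT was C57BL/6J ear skin at 8 weeks, pooled from 6 males and 4 females. Adult Lang-DTA was ear skin of Langerin-DTA mice at 8 weeks, pooled from 4 males and 6 females, and its title gives no background strain. In these mice diphtheria toxin A is placed under human Langerin regulatory sequence, which is active chiefly in Langerhans cells, the dendritic cells of the epidermis. Per the labels, the wild-type mice used with this line were littermates from hemizygous males and wild-type females. Lymphatic endothelial, blood endothelial, CD45-positive and double-negative (CD45 and CD31) cells were sorted from each pool and mixed in equal parts, so numbers of cells do not give their shares in skin. Each pool gave a single library, so no difference below has a replicate check and none was tested. Young and adult libraries differ in age, adult libraries in genotype and in the balance of the sexes, and all of them may differ in handling, which cannot be told apart.

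Type I interferons (the alpha family and beta) signal through Ifnar1 and Ifnar2 and activate a complex containing Stat2 and Irf9 that binds the interferon-stimulated response element. Interferon gamma, made mostly by T cells and natural killer cells, signals through Ifngr1 and Ifngr2, and acts through the gamma-activated sequence. The Ifit, Oas and Mx proteins act on viral RNA and viral particles, the guanylate-binding (Gbp) and immunity-related (Irgm1, Irgm2, Igtp, Iigp1) GTPases act on the vacuoles of intracellular microbes, and Cxcl9 and Cxcl10 attract activated T cells through Cxcr3.

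The promoters of 31 of the 40 members were found in the RefSeq table (GRCm38.p6), as 300 bases from 250 before to 50 after the start of the gene. They were searched on both strands for GAAANNGAAA, the core of the interferon-stimulated response element, and TTCNNNGAA, the core of the gamma-activated sequence. The first was present in 20 of the 31, against 3.44% of 32851 promoters in the table, and the second in 9, against 8.3%. All 7 gamma-type promoters in the table held the first and 4 of them both, which 0.454% of all promoters did. Members were scored over all their windows in the table, and the background window by window. A member with several windows thus had more chances to match, and could hold the 2 motifs in different windows. Of 8 type I-type promoters, 5 held the first and 2 the second. A match is a description of letters and not a site or a cause. The promoters below are those of members on which the results turn, printed 5′ to 3′ on the strand of the gene, with the matched letters in capitals. Ifit1 (chr19:34640639-34640938, plus strand) holds 2 response-element matches, 104 and 85 bases before the start, and Gbp2 (chr3:142620413-142620712, plus strand) 1, at 59 bases. Igtp (chr11:58199306-58199605, plus strand) holds a gamma-activated match 45 bases and a response-element match 34 bases before the start. Cxcl10 (chr5:92348840-92349139, minus strand) has its response-element match 213 bases before the start. Ifit2 (chr19:34550444-34550743, plus strand) has a gamma-activated match at 241 bases and no response-element match in this window or in its other window in the table.
Ifit1: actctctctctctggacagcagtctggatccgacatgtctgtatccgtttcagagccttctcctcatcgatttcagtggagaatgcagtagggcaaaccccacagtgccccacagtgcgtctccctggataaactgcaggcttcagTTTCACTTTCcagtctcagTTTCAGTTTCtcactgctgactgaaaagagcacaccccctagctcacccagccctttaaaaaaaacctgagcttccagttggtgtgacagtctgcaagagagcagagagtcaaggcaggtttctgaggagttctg
Gbp2: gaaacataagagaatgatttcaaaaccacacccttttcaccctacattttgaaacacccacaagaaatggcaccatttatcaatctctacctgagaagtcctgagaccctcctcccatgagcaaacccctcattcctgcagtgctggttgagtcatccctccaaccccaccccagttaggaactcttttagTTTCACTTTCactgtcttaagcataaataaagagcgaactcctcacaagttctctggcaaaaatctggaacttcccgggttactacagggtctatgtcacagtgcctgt
Igtp: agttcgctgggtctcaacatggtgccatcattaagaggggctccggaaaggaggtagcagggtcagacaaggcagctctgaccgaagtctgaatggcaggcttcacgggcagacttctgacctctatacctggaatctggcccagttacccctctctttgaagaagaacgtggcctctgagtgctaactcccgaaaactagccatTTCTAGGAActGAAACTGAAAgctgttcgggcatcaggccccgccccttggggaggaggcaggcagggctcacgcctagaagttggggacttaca
Cxcl10: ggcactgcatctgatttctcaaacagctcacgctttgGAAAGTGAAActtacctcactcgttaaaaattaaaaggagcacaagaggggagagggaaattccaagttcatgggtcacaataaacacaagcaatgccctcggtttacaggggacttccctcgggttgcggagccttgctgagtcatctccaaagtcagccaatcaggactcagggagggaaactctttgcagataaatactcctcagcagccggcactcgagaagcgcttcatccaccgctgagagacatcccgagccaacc
Ifit2: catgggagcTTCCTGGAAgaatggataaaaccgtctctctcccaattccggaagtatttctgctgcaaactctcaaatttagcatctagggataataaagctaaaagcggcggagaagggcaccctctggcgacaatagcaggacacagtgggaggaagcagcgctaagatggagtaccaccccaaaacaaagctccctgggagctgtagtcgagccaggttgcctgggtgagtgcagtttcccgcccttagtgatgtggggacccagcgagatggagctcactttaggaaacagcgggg

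Several members are neighbours. Ifit2, Ifit3, Ifit3b and Ifit1 lie within chr19:34550694-34650009 (GRCm38), Gbp5, Gbp7, Gbp3 and Gbp2 follow each other on chromosome 3, and Oas2, Oas3 and Oas1a on chromosome 5. Igtp (chr11:58199556-58207591) and Irgm2 (chr11:58199618-58222782) overlap on the same strand. Of the last 500 bases of the transcripts, where this chemistry reads, Oas1a shares 56.1% of its 50-base words with another gene and Ifit3 14.9%, so the values of Igtp, Irgm2, Oas1a and Ifit3 are uncertain in how reads were divided.

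The libraries held 124590777 to 137441575 unique molecular identifiers (UMIs, each 1 captured transcript) in 12864 to 13600 barcodes, and 12399, 12621 and 12941 cells were kept. Where 3 values follow each other, they are those of young WT, of adult WT and of adult Lang-DTA in that order. Any pair of libraries shared 39 to 50 barcode sequences. Cells were sorted into gates by raw UMIs of defining genes: lymphatic endothelial cells by Prox1, blood endothelial cells by Cdh5 and Ptprb without Prox1 and Mmrn1, keratinocytes by Krt5 and Krt14, fibroblasts by Dpt, chondrocytes by Col2a1, dendritic epidermal T cells by Trdv4 and Langerhans cells by Cd207. Lymphatic cells were further split by the sum of Gdf15 and Gpnmb, a stress-induced cytokine and a lysosomal glycoprotein, into low (at most 1 UMI) and high (at least 4). In each gate of 50 or more cells every gene of its own 6-gene marker list was detected in every library. The lists include the genes that set the gates, so this is no independent check of what the cells are. The chondrocyte gate also carried the fibroblast list at a high level, so that it holds collagen-rich cells in general. The low lymphatic gate held 3113, 1281 and 1004 cells with medians of 7375, 4874 and 6896.5 UMIs, and the high gate 513, 127 and 1045 cells with medians of 9996, 6758 and 11579. The Cd207 gate held 582, 425 and 6 cells, and the 6 Langerin-DTA cells are left out of comparisons. Levels are UMIs per 1000000 UMIs of the gate (CPM), with exact 95% intervals in brackets. The intervals cover counting error only and treat UMIs as independent, although UMIs of these genes often sat together in few cells, so they are too narrow.

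The blood endothelium carried the highest level of both sums in all 3 libraries among the gates compared. The type I-type sum was 142 CPM [137, 147] in young WT, 147 [143, 151] in adult WT and 209 [203, 215] in adult Lang-DTA, and the gamma-type sum 1890 [1870, 1910], 2470 [2454, 2487] and 2228 [2208, 2248]. Low lymphatic cells stood at 43.9 [41.4, 46.6], 37.2 [32.9, 41.9] and 64.4 [59, 70.1] for the type I-type sum and at 233 [227, 239], 556 [539, 574] and 523 [507, 539] for the gamma-type sum. Keratinocytes were low for the type I-type sum, with 1.42 [0.943, 2.05], 9.05 [8.05, 10.1] and 7.83 [6.85, 8.92], and dendritic epidermal T cells were at 10.4, 7.04 and 15.2. No gate other than blood endothelium had a gamma-type sum above the 556 CPM of adult WT low lymphatic cells in any library.

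**Figure D1:**
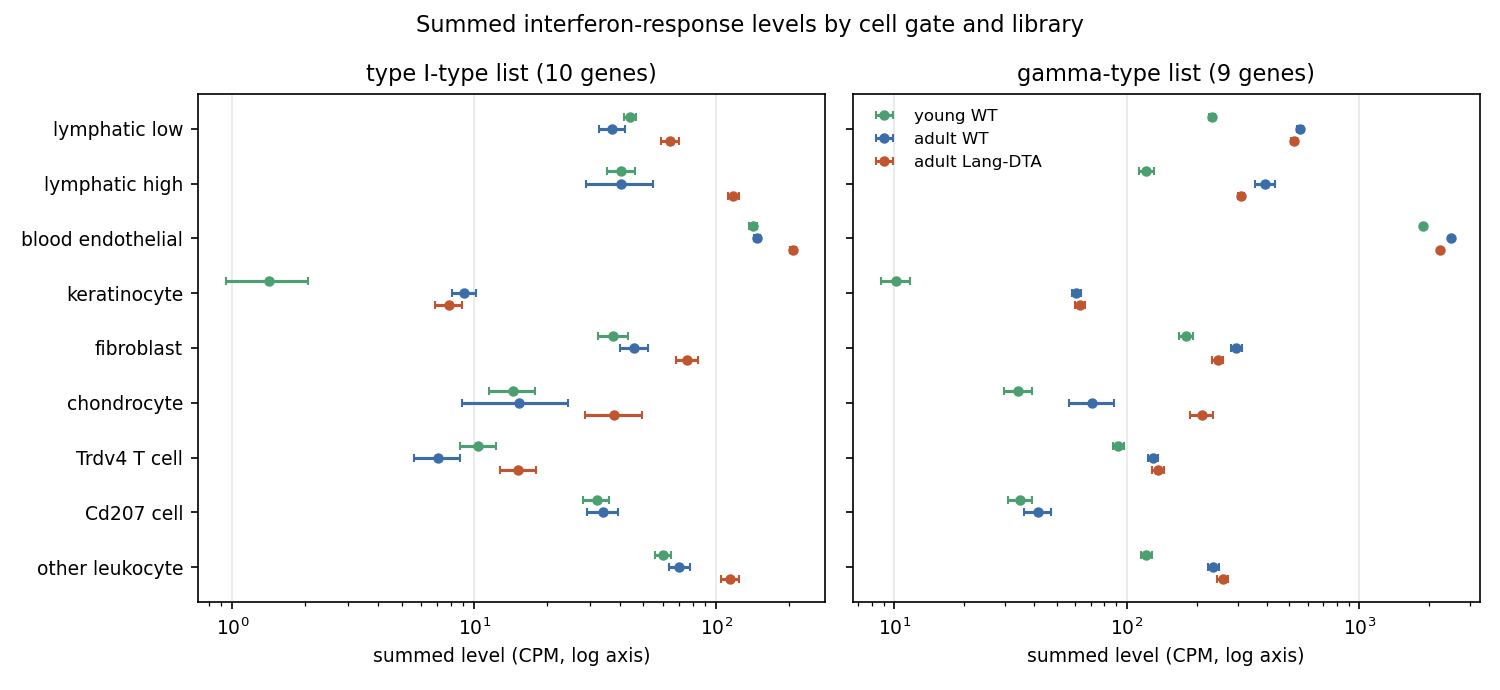
Summed level in CPM (log axis) of the type I-type and gamma-type lists in each gate and library, 1 point per library with its exact 95% counting interval. The blood endothelial points lie highest in both panels, and the gamma-type points of keratinocytes move from 10.1 in young WT to 60.7 in adult WT.

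Which members made up the type I-type sum differed between cell types. Ifit2, an inducer of cell death that binds RNA, gave 67.6%, 41.2% and 51.4% of the sum in low lymphatic cells. In blood endothelium the largest share in the WT libraries was that of Oasl2, a ubiquitin-like relative of the oligoadenylate synthetases, at 30.0% and 25.6%. In the Cd207 gate it was Oas2, an oligoadenylate synthetase that activates RNase L, with 43.9% in young WT and 56.0% in adult WT. Oas2 stood at 14.1 and 19 CPM there against 0.119 and 0.279 in low lymphatic cells, and Oas3 at 6.72 and 4.09 against 0.0796 and 0. Ifit1 was at 0 and 0.178 CPM in the same Cd207 cells. Mx1, a dynamin-like GTPase, gave the largest share in other leukocytes of the WT libraries, at 17.1 and 15.6 CPM, and was at 0.0796 and 0 in low lymphatic cells. The Langerhans cells of both WT libraries therefore held Oas transcripts and nearly no Ifit transcripts, the reverse of the lymphatic endothelium.

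In low lymphatic cells, the gamma-type members were higher in adult than in young wild-type skin, and the type I-type sum was not. The gamma-type sum was 2.39-fold higher in adult WT (log2 1.26 [1.20, 1.32]). The type I-type log2 ratio was -0.24 [-0.44, -0.05] with all 10 members and 0.62 without Ifit2, the most abundant. Of 9 gamma-type members, 7 were higher by at least 1.5-fold and the other two, Gbp7 and Irgm1, were at 1.27-fold and 1.33-fold. Among all 40 members, 35 had at least 50 UMIs over both libraries, 18 were higher by at least 1.5-fold and 1 was lower, where 7.3% of 12525 genes with that many UMIs were higher and 11.2% lower. The median log2 ratio of the 35 was 0.63, and that of all these genes was -0.11, which is also the shift that median-of-ratios scaling makes.

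Iigp1, a GTPase that loads onto parasite vacuoles, was at 88.1 CPM in young WT, 313 in adult WT and 262 in adult Lang-DTA. Young WT was the lowest library, and the adult WT level was 3.55-fold [3.35, 3.77] that of young WT. It was read in 9.99% of young and 16.8% of adult WT cells, with at most 139 UMIs in 1 cell. Keratinocytes, which were deeper (medians of 15887.5 and 13511 UMIs), held it in 0.396% and 2.78% of cells. Gbp4 was at 15.6, 36.5 and 37.4 CPM, a 2.34-fold [1.99, 2.74] difference with age. Gbp2, whose promoter is printed above, was at 15.6, 30.1 and 42.8 CPM, 1.93-fold [1.63, 2.29]. In both, young WT was again the lowest and the adult libraries were close together or Langerin-DTA the higher. Igtp (7.05, 15.6 and 24 CPM), Irgm2 (12.7, 28 and 16.9 CPM) and Gbp5 (10.5, 21.2 and 22.7 CPM) were 2.21-fold, 2.20-fold and 2.01-fold higher in adult than in young WT. Gbp5 did not keep that direction in both sexes, with a log2 ratio of 2.01 in male-called and -0.16 in female-called cells.

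Among the type I-type members Ifit2 was the one that was lower in adult WT, at 29.7, 15.3 and 33.1 CPM, a ratio of 0.516 [0.418, 0.631] with age. Ifit1 went the other way, at 3.82, 7.8 and 15.1 CPM, 2.04-fold [1.44, 2.87] higher in adult than young WT. Oas1a, Oas2, Oas3, Oasl1 and Mx1 had at most 8 UMIs in any library in this gate, too few to compare. Of the other members, Trim30a, a tripartite-motif protein that restrains Toll-like receptor signalling, was at 9.55, 25.5 and 12.3 CPM and so was high in adult WT alone. Rsad2 (viperin, which makes a chain-terminating nucleotide) was at 3.66, 8.77 and 8.95 CPM, and Irf7, the factor that amplifies type I interferon production, at 3.5, 6.68 and 11.5. Bst2 (tetherin, which holds budding virus at the cell surface) was at 152 and 147 CPM in young and adult WT, a ratio of 0.97 [0.905, 1.04]. Cxcl9 was at 0.716, 8.36 and 2.7 CPM, and the adult WT value came from 60 UMIs in 1 cell.

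**Figure D2:**
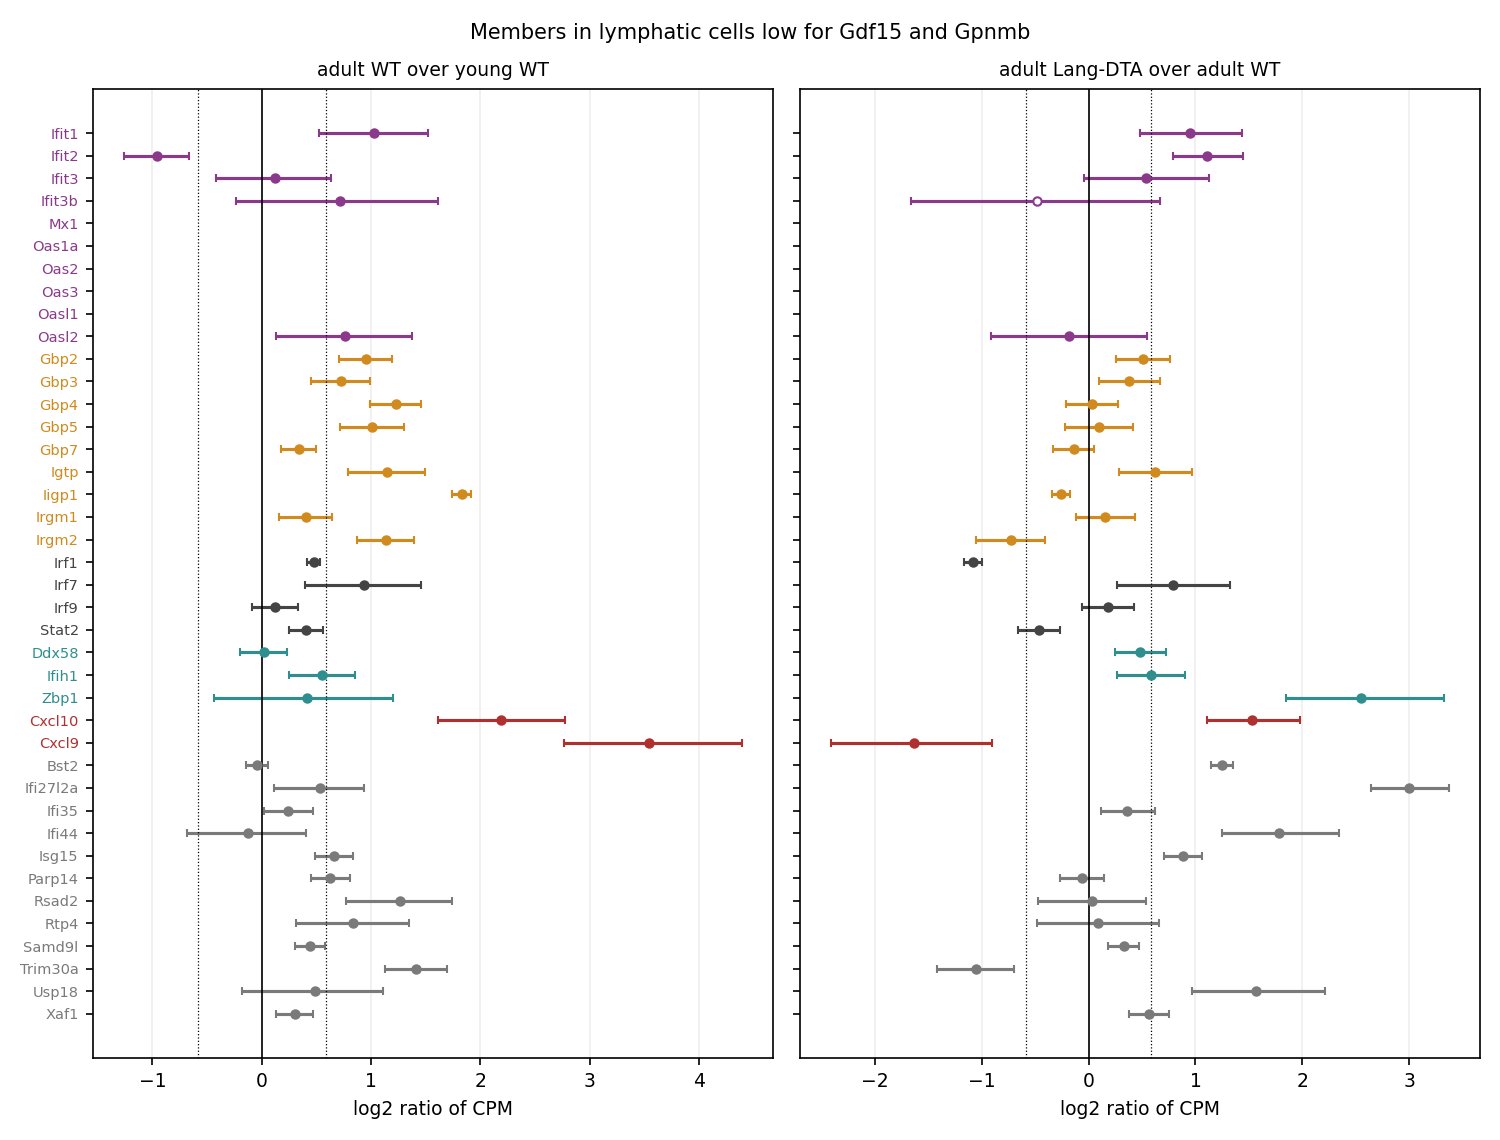
Log2 ratio of each member in Gdf15/Gpnmb-low lymphatic cells, adult WT over young WT and adult Lang-DTA over adult WT, with exact 95% counting intervals. Filled points have at least 50 UMIs over both libraries, open points fewer, and dotted lines mark 1.5-fold. The gamma-type members lie to the right of 0 for age, and Bst2, Zbp1 and Ifi27l2a lie to the right for genotype.

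The direction with age of the gamma-type sum was the same in each sex. Cells were called male or female from Y-linked and Xist transcripts, and 46.7% to 49.6% of cells in the WT libraries were male-called. In the low lymphatic gate the male-called share was 46.9% in young and 34.4% in adult WT, so the ratio over all cells was not matched for sex. The gamma-type sum was at 227 and 670 CPM in young and adult male-called low cells (log2 1.56) and at 227 and 429 in female-called ones (log2 0.92). When each cell was thinned to 3000 UMIs, 28.2% [26.5, 29.9] of young and 36.9% [34.0, 39.9] of adult WT low cells held a gamma-type UMI, and 4.12% and 10.4% held at least 3. Without thinning the shares were 48.6% and 44.4%, the opposite order, with adult cells the shallower. Cd74, a gene of antigen-presenting cells, was at 122 CPM in young and 14.1 in adult WT low cells and at 86.5 in adult Lang-DTA, in the reverse order of the gamma-type sum in the WT libraries. Without cells holding a Cd74 UMI, the log2 ratio with age was 1.17.

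High lymphatic cells showed the same order with age, although the adult WT gate held 127 cells. Of 20 members compared there, 9 were higher in adult WT and 1, Ifit2, was lower, against 8.09% and 14.9% of 9251 genes. The gamma-type sum was at 121 CPM in young and 395 in adult WT, 3.25-fold [2.87, 3.68], with log2 ratios of 1.52 in male-called and 1.35 in female-called cells. Iigp1 was at 20.8 and 190 CPM and Irgm1 at 15.8 and 42.2, and Ifit2 at 32 and 19.6.

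**Figure D3:**
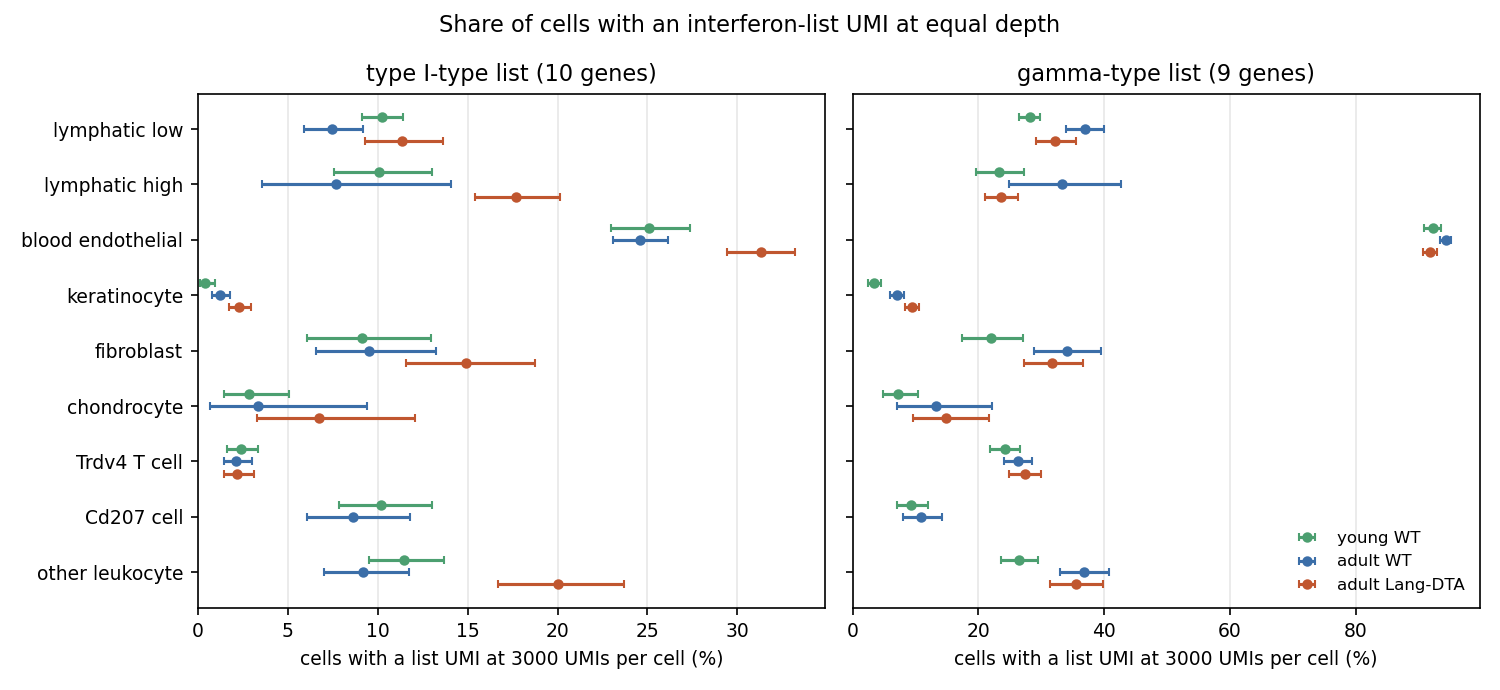
Share of cells with at least 1 UMI of the gamma-type and type I-type lists after thinning to 3000 UMIs per cell, with exact 95% binomial intervals. Blood endothelial cells are above 90% for the gamma-type list in every library, and low lymphatic cells go from 28.2% in young WT to 36.9% in adult WT.

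Between the adult genotypes, the other effectors Ifi27l2a, Bst2, Ifi44, Usp18 and Isg15 were higher in Langerin-DTA low lymphatic cells, and Irf1 was lower. Of 34 members with at least 50 UMIs, 11 were higher in adult Lang-DTA by at least 1.5-fold and 4 lower, against 16.7% and 10.5% of 11208 genes, and the median log2 ratio was 0.37 against 0.07 for all genes. The 11 were those 5 of the 12 other effectors, Ifit1, Ifit2, Igtp, Zbp1, Irf7 and Cxcl10. The 197 Cxcl10 UMIs of Langerin-DTA came from 11 cells, 86 of them from 1. Both comparisons use the same adult WT library, so they are not independent. In this gate the type I-type log2 ratio was 0.79 [0.58, 1.01], at 0.15 in male-called and 1.07 in female-called cells. Cd74 was 6.15-fold higher in Langerin-DTA in this gate, with a log2 ratio of -0.89 in male-called and 3.53 in female-called cells. Without cells holding a Cd74 UMI the type I-type log2 ratio was 0.85.

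Ifi27l2a, a small membrane protein, was at 6.93 CPM in young WT, 10 in adult WT and 80.1 in adult Lang-DTA. The Langerin-DTA library was thus the high one, 7.99-fold [6.25, 10.3] above adult WT, with the transcript in 18.5% of cells against 3.83%. Zbp1, a sensor of Z-form nucleic acids that can start necroptosis, was at 1.99, 2.65 and 15.5 CPM, 5.84-fold [3.59, 10.0]. Bst2 was at 152, 147 and 349 CPM, 2.37-fold [2.21, 2.54], and its UMIs were spread over 71.1% of Langerin-DTA cells. The deeper Langerin-DTA cells of the Col2a1 gate (median 9202 UMIs) held Bst2 in 10.1% of cells and Ifi27l2a in 0.676%. For Ifi27l2a, Zbp1 and Bst2 both WT libraries were close together and Langerin-DTA stood apart, in male-called (log2 3.71, 2.37 and 1.25) and in female-called cells (2.79, 2.70 and 1.28). Ifi44 (5.61, 5.15 and 17.7 CPM), Usp18, the protease that removes Isg15 from proteins (2.99, 4.18 and 12.4 CPM), and Isg15, the ubiquitin-like modifier itself (34.2, 54 and 99.6 CPM), were 3.43-fold, 2.96-fold and 1.84-fold higher in Langerin-DTA than in adult WT.

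The members lower in Langerin-DTA low cells were Irf1, Trim30a, Irgm2 and Cxcl9. Irf1, a factor induced early by interferon gamma and by cell stress, was at 336, 467 and 221 CPM, a ratio of 0.472 [0.446, 0.500] between the adult genotypes. It was lower in male-called (log2 -1.69) and female-called cells (-0.86). Ifit2 was 2.16-fold [1.73, 2.72] higher, which put it near its young WT level. The gamma-type sum was close between adult genotypes (log2 -0.09 [-0.15, -0.03]), but this sum hides opposite values by sex: 670 and 382 CPM in male-called cells (log2 -0.81) and 429 and 571 in female-called cells (log2 0.41), in adult WT and adult Lang-DTA. Iigp1 and Gbp4 showed the same split, with log2 ratios of -1.23 and 0.35 for Iigp1 and of -1.40 and 0.94 for Gbp4. No direction between the genotypes can therefore be given for the gamma-type list in these cells.

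**Figure D4:**
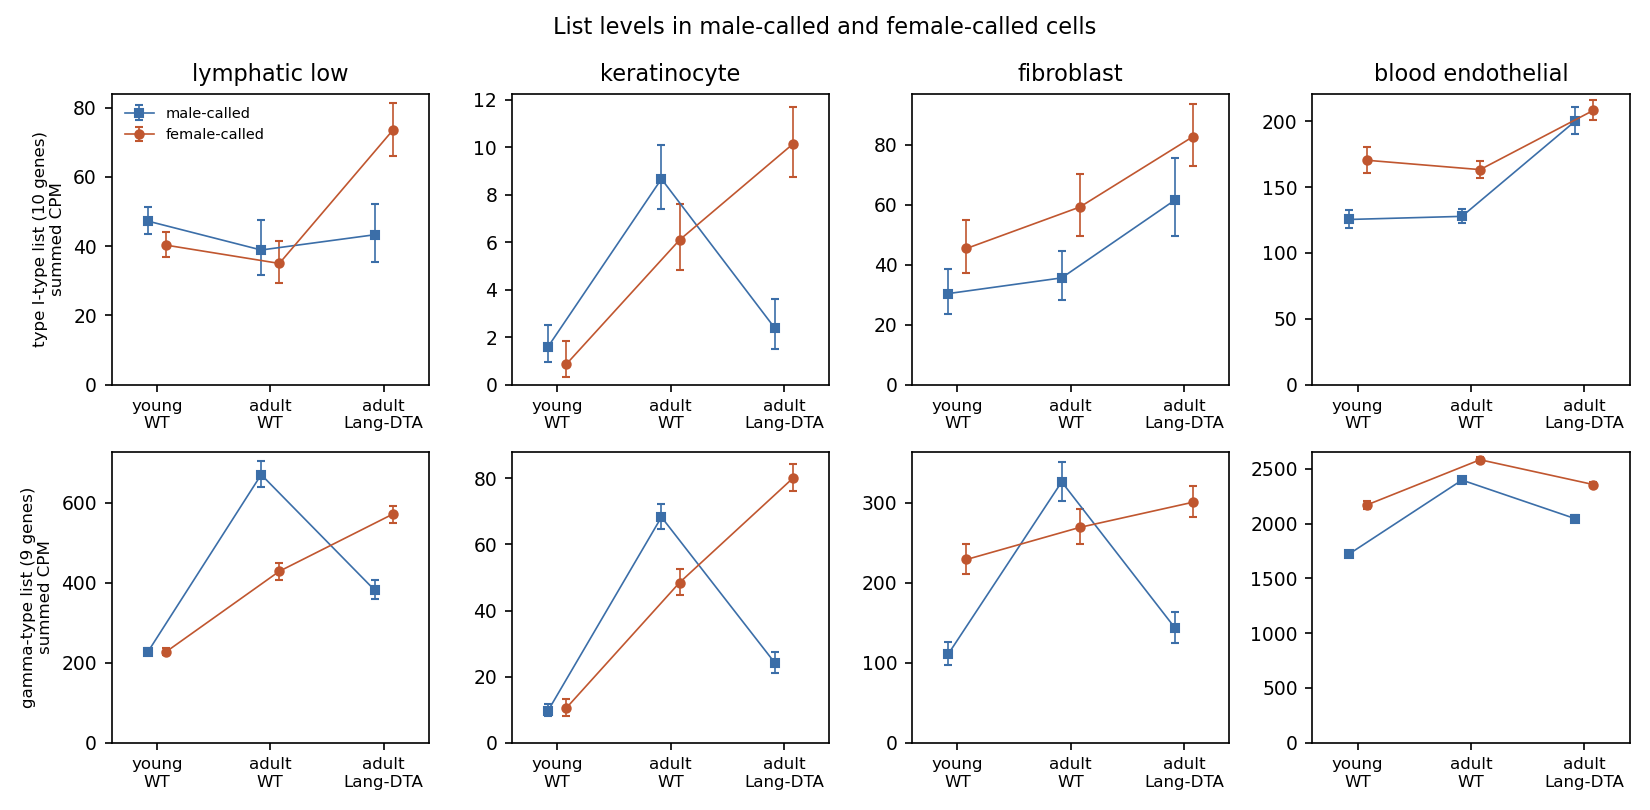
Summed levels in CPM (axes from 0) of the type I-type and gamma-type lists in male-called and female-called cells of each library in 4 gates, with exact 95% counting intervals. In low lymphatic cells and keratinocytes the gamma-type points of adult Lang-DTA lie below adult WT in male-called cells and above it in female-called cells.

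In Gdf15/Gpnmb-high lymphatic cells of the Langerin-DTA library, the sensors Ifih1 and Ddx58, Ifit1, Ifit2 and Cxcl10 were higher than in the low cells of that library, and the GTPases Gbp4, Gbp5, Gbp7 and Iigp1 lower. The other sensor, Zbp1, was at 15.5 and 12 CPM in low and high cells, and Ifit3 (8.46 and 9.87 CPM), Ifit3b and the other 5 gamma-type members did not differ by 1.5-fold. High cells were 13.1%, 8.46% and 46.0% of lymphatic cells. Within Langerin-DTA the log2 ratio of high over low cells was 0.87 [0.73, 1.02] for the type I-type sum and -0.76 [-0.82, -0.70] for the gamma-type sum. In young WT the same ratios were -0.12 and -0.94 and in adult WT 0.11 and -0.50, so the gamma-type sum was lower in high cells of every library. Of 35 members compared within Langerin-DTA, 10 were higher by 1.5-fold and 9 lower, against 17.6% and 23.7% of 11761 genes. The share of lower members was near that of all genes, so their count is not a result about the list. The median of -0.07 was near the -0.10 of all genes. In young WT 1 was higher and 12 lower (2.68% and 13.8% of 12333 genes), and in adult WT 2 and 11 (4.56% and 15.4% of 9846). The 35 members are those of Langerin-DTA, and fewer could be compared in adult WT. Cxcl9 and Cxcl10, among the 11, each had 60 UMIs in low and 0 in high adult WT cells, those of Cxcl9 from a single cell.

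Ifih1 (Mda5, a receptor for long double-stranded RNA) was at 27.1 CPM in low and 58.8 in high Langerin-DTA cells, 2.17-fold [1.86, 2.53]. In the high cells of young and adult WT it was at 5.63 and 14.7. Ddx58 (RIG-I, a receptor for RNA with a 5′ triphosphate) was at 45 and 70.1 CPM in low and high Langerin-DTA cells, 1.56-fold [1.38, 1.76], and at 26.2 and 27.5 in the WT high cells. Both sensors were thus at their highest lymphatic level in the Langerin-DTA high cells. Ddx58 was read in 38.7% of them, against 24.3% of Langerin-DTA cells in the Col2a1 gate. The Col2a1 cells were the shallower (medians of 9202 and 11579 UMIs), so these shares are not at equal depth. Ifit2 was at 33.1 and 70 CPM (2.11-fold [1.84, 2.43]), Ifit1 at 15.1 and 29.5 (1.95-fold [1.59, 2.41]) and Rsad2 at 8.95 and 20.5 (2.29-fold [1.76, 3.01]). Many of the 382 Ifit1 UMIs of the Langerin-DTA high cells were in a single cell, and the ratio without that cell was not taken. The interval of Ifit1 does not cover this. The log2 ratios of Ifih1, Ddx58, Ifit2, Ifit1 and Rsad2 were above 0 in male-called and in female-called cells. Ifi27l2a went against these genes, at 80.1 CPM in low and 34.9 in high cells, as did Xaf1, an inhibitor of XIAP that favours cell death, at 79 and 44.

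Cxcl10 had 1 UMI in young WT high cells, 0 in adult WT and 2153 in adult Lang-DTA (0.176, 0 and 166 CPM). The exact interval of the ratio between Langerin-DTA and adult WT had a lower limit of 45.8-fold. These 2153 UMIs came from 66 of 1045 cells, and 448 of them from 1 cell. Cxcl9 had 347 UMIs there in 3 cells, 312 of them in 1, and none in the WT high cells. The adult WT high gate held 127 cells, and between the genotypes 33% of 10837 genes were higher and 19.9% lower. Of 33 members 18 were higher, a larger share than that wide background, and 6 were lower, a share near it. A member could reach 50 UMIs through Langerin-DTA alone. Among the 18, Cxcl9 and Cxcl10 had 0 adult WT UMIs, Irf7, Usp18 and Rtp4 had 2, Ifit3 had 3, and Zbp1 and Rsad2 had 4. The count of 18 therefore gives no support for an excess, and none was tested. The gamma-type members that were lower in high than in low Langerin-DTA cells were Gbp4 (37.4 and 13.6 CPM), Gbp5 (22.7 and 9.64), Iigp1 (262 and 115) and Gbp7 (55.7 and 35.2). All 4 were lower in male-called and in female-called cells.

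**Figure D5:**
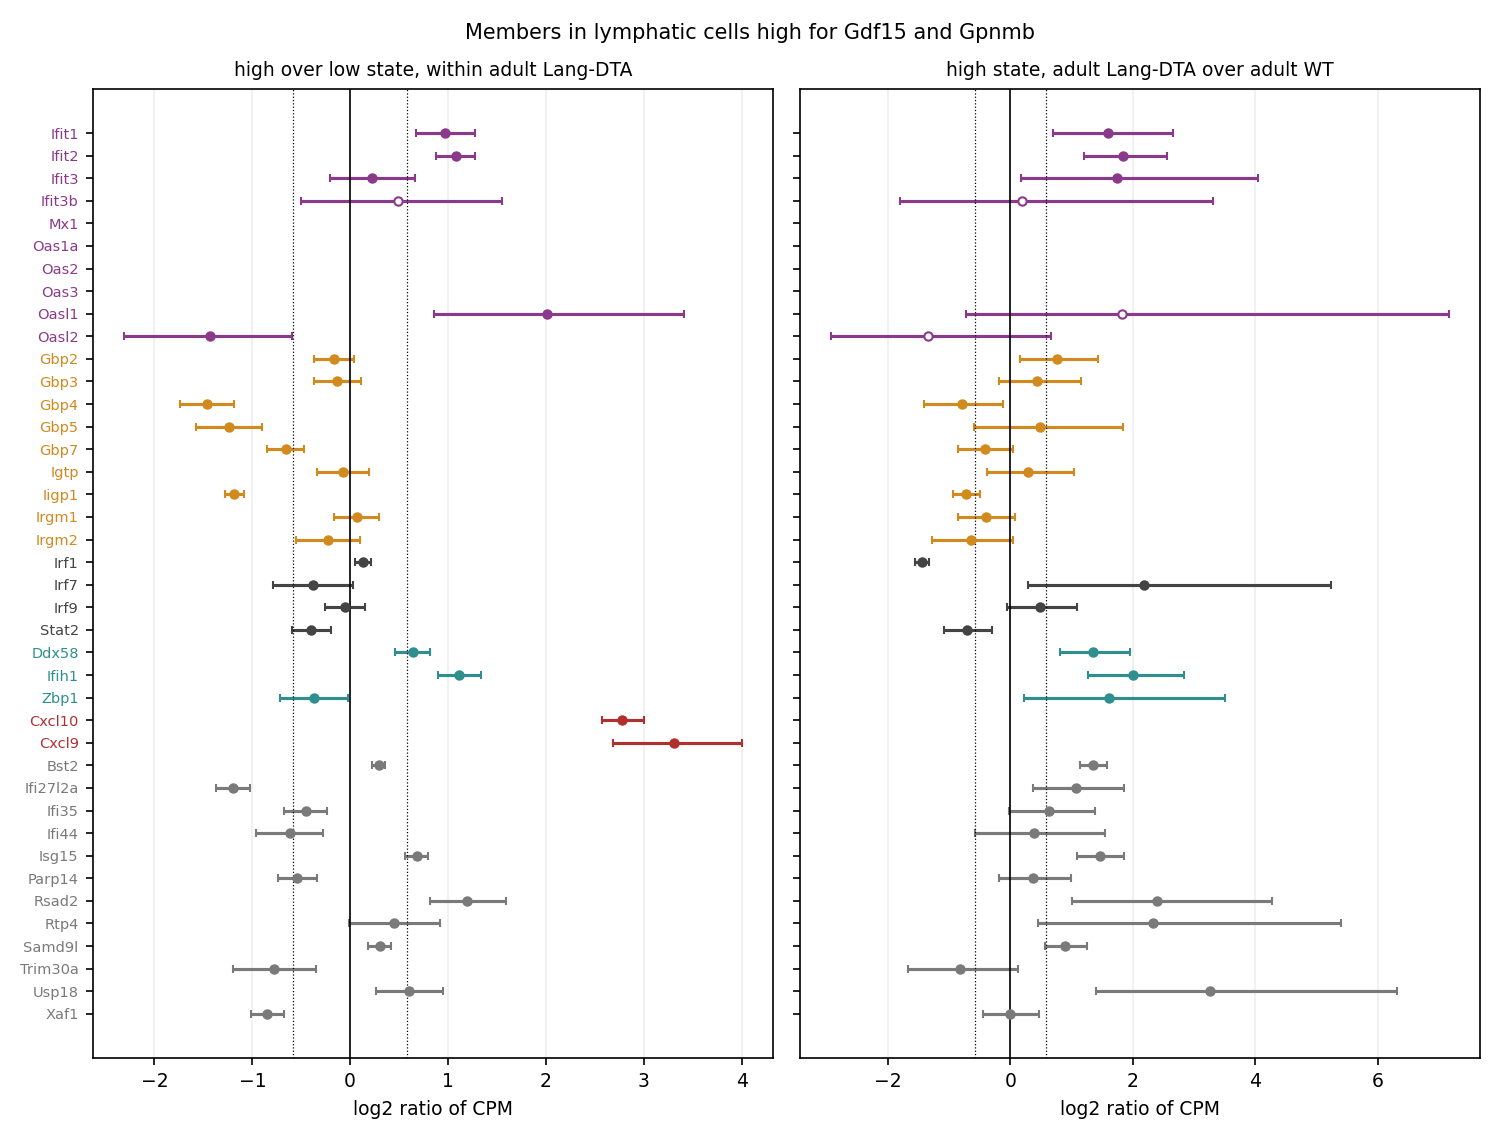
Log2 ratio of each member between Gdf15/Gpnmb-high and low lymphatic cells of adult Lang-DTA, and between high cells of adult Lang-DTA and adult WT, with exact 95% counting intervals, filled points for at least 50 UMIs over both groups, open points for fewer, and dotted lines at 1.5-fold. Cxcl10, Oasl1, Ifih1 and Ifit2 lie right of 0 and Iigp1, Gbp4 and Gbp5 left of 0 for high over low cells.

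In Langerin-DTA lymphatic cells and adult WT low cells, gamma-type UMIs were read more often where the cell also held a type I-type UMI. After a joint thinning of all cells to 3000 UMIs, 42.1% [35.0, 49.3] of high Langerin-DTA cells with a type I-type UMI also held a gamma-type UMI, against 18.6% [16.0, 21.4] of those without. In low cells the shares were 55.4% and 34.6% in adult WT and 54.3% and 29.0% in adult Lang-DTA. In young WT low cells they were 33.9% [28.4, 39.8] and 28.2% [26.4, 30.0], and in WT high cells 25.0% and 24.0% at the young and 33.3% and 28.6% at the adult age, with overlapping intervals in each. The order was not particular to lymphatic cells. Blood endothelial cells (96.3% and 91.3%, 97.3% and 92.8%, 97.0% and 89.0%) had it in every library, with intervals apart. Other leukocytes (40.5% and 24.1%, 52.5% and 34.4%, 53.2% and 35.5%) did too. In young WT the shares had the other order in the Trdv4 gate (16.7% and 24.3%) and the Cd207 gate (6.67% and 9.25%), on 42 and 60 cells with a type I-type UMI. In adult WT the Trdv4 (42.3% and 25.4%) and Cd207 gates (17.1% and 11.6%) had the lymphatic order, with overlapping intervals. In the Col2a1 gate 0 of 10 young and 0 of 3 adult WT cells with a type I-type UMI held a gamma-type UMI. Libraries differ in how far apart these shares lie, and the difference between libraries was not tested.

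Blood endothelial cells held interferon response transcripts in nearly every cell and showed few differences. After thinning, 92.3%, 94.3% and 91.8% of cells held a gamma-type UMI. Of 38 members compared, 3 were higher with age and 0 lower (6.09% and 8.43% of 13208 genes), and 3 higher with genotype and 0 lower (6.5% and 3.15% of 13351). Iigp1 was at 1059, 1615 and 1348 CPM, a 1.52-fold [1.5, 1.55] difference with age. Cxcl10 was at 17, 40.2 and 71 CPM and Cxcl9 at 6.36, 20.9 and 33, each lowest in young WT and highest in adult Lang-DTA. Between adult genotypes Cxcl10 was 1.76-fold [1.64, 1.90] and Cxcl9 1.58-fold [1.42, 1.75] higher in Langerin-DTA, in male-called and in female-called cells. Oasl1, an inhibitor of Irf7 translation, was at 3.34, 3.5 and 8.59 CPM, 2.45-fold [1.94, 3.11] between the genotypes. Irf1 was at 1090, 1185 and 1089 CPM, near the same level in the 3 libraries.

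Keratinocytes had a larger age ratio of both list sums than any other gate compared (log2 2.67 for the type I-type and 2.58 for the gamma-type sum), from a level near 0. Of 25 members compared, 17 were higher in adult WT and 0 lower, against 5.86% and 6.77% of 12536 genes, and 8 of the 25 had under 15 UMIs in 1 library. Iigp1 was at 0.253 CPM (5 UMIs) in young WT, 21.9 in adult WT and 16.9 in adult Lang-DTA, 86.3-fold [36.8, 267] higher in adult than in young WT. Gbp2 was at 0.709, 12.1 and 13.3 CPM, 17.0-fold [10.0, 31.4], and Oasl2 at 0.659, 4.65 and 4.28, 7.06-fold [4.01, 13.6]. Cxcl9 had no UMI in young WT and 407 in adult WT, and Ifit1 none and 51, with lower limits of the ratio at 66.3-fold and 8.05-fold. Young WT was the low library in each case. Igtp (0.709, 4.71 and 4.79 CPM), Rtp4 (0.253, 1.62 and 2.16 CPM) and Cxcl10 (5.52, 25.9 and 25.9 CPM) had the same order, although Cxcl10 was lower with age in female-called cells (log2 -0.71).

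These keratinocyte UMIs sat in few cells. The 407 Cxcl9 UMIs of adult WT came from 12 of 2340 cells and 193 of them from 1, and the 715 Iigp1 UMIs from 65 cells. After thinning, the cells with a gamma-type UMI were 3.43%, 7.01% and 9.41%, and those with a type I-type UMI 0.408%, 1.23% and 2.27%. Of the adult WT cells with a type I-type UMI, 43.3% (13 of 30) held a gamma-type UMI too, against 6.31% of the others, and in Langerin-DTA 39.1% (18 of 46) against 8.36%. Between adult genotypes 4 of 28 members were higher and 1 lower (2.88% and 1.59% of 12810 genes). The 4 were Irgm2, Ifi27l2a, Samd9l and Usp18, at 1.56-fold to 1.68-fold, and the lower one was Cxcl9 (12.4 and 5.71 CPM). The gamma-type log2 ratio was 0.05 in all cells, -1.50 in male-called and 0.72 in female-called ones. In adult WT male-called keratinocytes stood at 68.3 CPM and female-called at 48.5, and in adult Lang-DTA at 24.2 and 80.1. The age difference was present in each sex, from 9.73 CPM in male-called and 10.5 in female-called young cells.

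Fibroblasts carried higher chemokine levels in adult than young wild-type skin and lower ones in Langerin-DTA. The gamma-type sum was at 180, 296 and 246 CPM, and its log2 ratio with age was 0.72, at 1.55 in male-called and 0.23 in female-called cells. Iigp1 (2.07 and -0.22) and Igtp (2.97 and -0.00) were past 1.5-fold in male-called and not in female-called cells, while Gbp2 (2.38 and 1.26), Cxcl9 (1.88 and 2.65) and Cxcl10 (1.67 and 1.31) were higher in both. Of 28 members, 10 were higher with age and 0 lower (6.01% and 10.4% of 10741 genes), and between adult genotypes 3 of 29 were higher and 4 lower (7.43% and 3.45% of 10619). Cxcl10 was at 35.2, 83.9 and 37 CPM and Cxcl9 at 8.8, 44.3 and 12.7, so that adult WT was the high library in both. Of the 204 adult WT Cxcl9 UMIs, 100 were in 1 cell. Gbp2 was at 19.6, 65.2 and 54.4 CPM, 3.33-fold [2.64, 4.22] with age. Ifit1 was at 0.8, 4.35 and 19.5 CPM, 4.48-fold [2.74, 7.68] between the adult genotypes and in the opposite order to the chemokines. Gbp5 (7, 16.3 and 4.02 CPM) followed the order of the chemokines, and Ifi27l2a (13.2, 32.6 and 57.2 CPM) that of Ifit1. The gamma-type log2 ratio between genotypes was -0.27 in all cells, -1.19 in male-called and 0.16 in female-called cells, so it too has no single direction. Cd74 in this gate was at 195 CPM in young WT and 8.47 and 2.96 in the adult libraries. Its log2 ratio with age was 1.45 in male-called and -5.46 in female-called cells, so the fall was in female-called cells alone.

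Among collagen-rich cells of the Col2a1 gate, Irf1 was at 680, 1095 and 1046 CPM and 10 members could be compared with age, of which 3 were higher and 1 lower (8.52% and 14.4% of 9913 genes). Between genotypes 4 of 9 were higher and 0 lower (4.64% and 4.05% of 6981). Among the 4, Iigp1 (2 adult WT and 105 Langerin-DTA UMIs) and Bst2 (3 and 48) reached 50 UMIs only through Langerin-DTA. The count of 4 therefore gives no support for an excess over the background. Iigp1 was at 3.61, 1.8 and 69.8 CPM, but the 105 UMIs of adult Lang-DTA came from 4 of 148 cells and 57 of them from 1. Without the 5% of cells with most UMIs, the gamma-type log2 ratio between genotypes changed from 1.56 to -0.14. Irgm1, a regulator of the other GTPases, was at 7.39, 20.7 and 37.9 CPM, but its log2 ratio with age was 2.63 in male-called and -0.52 in female-called cells, and with genotype -0.19 and 2.86. Bst2 was at 5.33, 2.7 and 31.9 CPM, with 25 of its 48 Langerin-DTA UMIs in 1 cell.

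In the Trdv4 gate, dendritic epidermal T cells, 6 of 25 members were higher with age and 1 lower (7.02% and 8.42% of 11679 genes), and 6 of 27 higher with genotype and 0 lower (8.63% and 2.02% of 11510). Isg15 was at 66.7, 107 and 123 CPM, 1.61-fold [1.48, 1.75] with age. Ifit2 was the lower one, at 6.28, 2.7 and 4.06 CPM (0.431 [0.279, 0.651]). Cxcl10 was at 2.54, 34.2 and 29.6 CPM, with 302 of the 417 adult WT UMIs in 1 cell. Ifi27l2a was at 2.61, 3.28 and 18.6 CPM and Ifih1 at 5.01, 4.18 and 15.8, 5.67-fold [3.99, 8.23] and 3.78-fold [2.72, 5.32] higher in Langerin-DTA than in adult WT. In both the WT libraries were close together, and Langerin-DTA was higher in each called sex. Markers of other cells moved with these values: Cd74 was at 383, 343 and 896 CPM in this gate and the fibroblast list at 159, 92.9 and 466, and their part in the result was not tested.

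Langerhans cells, the Cd207 gate, could be compared with age alone. Of 20 members, 2 were higher and 1 lower (6.14% and 8.14% of 10029 genes). Oas2 was at 14.1 CPM in young and 19 in adult WT (1.35-fold [1.03, 1.78]) and Oas1a at 8.31 and 9.61 (1.16-fold [0.794, 1.68]). Isg15 was at 9.04 and 25.6 CPM, 2.83-fold [2.13, 3.80], with log2 ratios of -0.60 in male-called and 2.47 in female-called cells. Samd9l, a restriction factor of translation, was at 133 and 154 CPM and was read in 77.8% and 76.5% of cells, against 1.98% and 2.74% of keratinocytes, whose median depth was 15888 and 13511 UMIs beside 13418 and 11488 in the Cd207 gate. Of the 6 Cd207 cells in the Langerin-DTA library, 5 held type I-type UMIs, 83 in all, and 73 of these were in 1 cell.

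Other leukocytes, cells with Ptprc UMIs outside the gates, are a mixture whose makeup differed between libraries. Here 16 of 36 members were higher with age and 1 lower, against a background of 18.3% and 15% of 11243 genes, and 8 of 37 higher with genotype and 0 lower (8.03% and 7.84% of 10357). The macrophage list stood at 2866, 890 and 1988 CPM in these cells, and its part in the differences was not tested. Gbp4 was at 10.6, 43.1 and 32.4 CPM, 4.05-fold [3.24, 5.10] with age. Rtp4, a chaperone of receptor proteins, was at 9.37, 9.34 and 24.2 CPM and Ifi27l2a at 80.8, 130 and 240, with Langerin-DTA highest in both.

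Over the 7 gates that could be compared with age (all Prox1 cells taken as 1), the gamma-type sum was at least 1.5-fold higher in adult WT in 4 and the type I-type sum in 1, the keratinocytes. Over the 6 gates compared with genotype, the type I-type sum was at least 1.5-fold higher in Langerin-DTA in 4 and the gamma-type sum in 1, the collagen-rich cells. The 4 were Prox1 cells, fibroblasts, collagen-rich cells and the Trdv4 gate. In the collagen-rich cells Ifit2 and Ifit3 had 10 and 5 adult WT UMIs and the other type I-type members fewer. High cells were 8.46% of adult WT and 46.0% of Langerin-DTA Prox1 cells, so that sum also mixes in a different makeup. The gates come from the same mice and libraries and are not independent.

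The rest of the pathway was read from lists of ligands, receptors, inhibitors and antigen presentation genes. The ligands of type I interferon, 18 genes, had 0 to 7 UMIs in any gate and library, and the 2 lambda ligands had none. Ifng was found chiefly in other leukocytes, with 35, 294 and 67 UMIs (3.12, 53.9 and 15.2 CPM), in 11 of 976, 88 of 671 and 29 of 575 cells. Adult WT was the high library, 17.2-fold [12.1, 25.2] above young WT, and Langerin-DTA had 0.281 [0.213, 0.368] of the adult WT level, in the same direction in each called sex. Since this gate is a mixture, more cells that make Ifng and more Ifng per cell are not separated by the sum, but the share of cells with a UMI went from 1.13% to 13.1% and 5.04%. No cell of the Col2a1 or Cd207 gates held an Ifng UMI. Its receptor genes in low lymphatic cells, Ifngr1 (68.4, 75.1 and 81.3 CPM) and Ifngr2 (55.5, 37.5 and 49.2 CPM), did not differ by 1.5-fold in the age or the genotype comparison. Ifnar1 was at 104, 66.3 and 97 CPM, a ratio of 0.639 between adult and young WT, and Ifnar2 at 137, 113 and 127.

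In low lymphatic cells, 4 of 9 antigen presentation genes of class I were higher in adult than young WT and none was lower, against 7.3% and 11.2% of 12525 genes. Nlrc5, the transactivator of class I genes, was at 6.41, 17.5 and 21 CPM, 2.74-fold [2.15, 3.48] with age. The immunoproteasome subunits Psmb9 (9.43, 20.5 and 25.1 CPM) and Psmb8 (14.7, 27 and 37.5 CPM) and the light chain B2m (243, 433 and 775 CPM) were lowest in young WT and highest in Langerin-DTA. Between the adult genotypes B2m, H2-K1, H2-D1 and Tap1 were higher by at least 1.5-fold and none of the 9 lower, against 16.7% and 10.5% of 11208 genes. The class II genes Cd74 (6.15-fold), H2-Ab1 (5.20-fold), H2-Aa (7.32-fold) and H2-Eb1 (8.09-fold) were higher in the same comparison, but in female-called cells alone (log2 3.39 to 3.68, against -1.78 to -0.89 in male-called cells). Of 4 inhibitors of the pathway Socs3, a brake on cytokine receptors, was lower in Langerin-DTA, at 311, 341 and 149 CPM. The others did not differ by 1.5-fold between the adult genotypes. With age 1 of the 4 was at least 1.5-fold higher in adult WT and 0 lower.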

How the data were processed

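For each library the authors deposited raw counts: the number of UMIs for every gene in every called barcode, not normalized. The submitters' processing notes name Cell Ranger 8.01 and GRCm38, while the header of the matrix files gives 8.0.1. Which annotation release was used, whether intronic reads were counted, and whether ambient RNA was subtracted is not given in the sources used here. The 10x Genomics 3′ method keeps the strand of the transcript.

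A barcode was kept if it had 500 genes or more, 1000 UMIs or more and no more than 10% of its UMIs from mitochondrial genes. Gates were set on raw UMIs: Prox1 at least 2, Cdh5 plus Ptprb at least 3 with no Prox1 or Mmrn1, Krt5 plus Krt14 at least 0.3% of UMIs, Dpt at least 2, Col2a1 at least 3, Trdv4 at least 1 and Cd207 at least 2. Other leukocytes had at least 2 Ptprc UMIs and lay in none of these gates. Cells in more than 1 gate (2.38% to 2.98%) were left out, and no doublet caller was run. For 35 symbols with more than 1 gene ID the most abundant ID was used. UMIs were summed per gate and library and divided by the sum of the gate (CPM). Levels have exact Poisson, ratios exact conditional binomial and shares exact binomial 95% intervals, and a count of 0 was set against a floor of 3 counts over the group. With 1 library per condition there is no test. A gene was compared where it had at least 50 UMIs over both groups, and counted as higher or lower past 1.5-fold. The ratio step was tested on simulated data.

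Members named with values had at least 50 UMIs and were past 1.5-fold, ranked by the interval limit nearest no change, the first 6 per direction and group in lymphatic comparisons and the first 3 in other gates. Other members named beside these, such as Oas and Mx1 levels, Gbp7, Irgm1 and Samd9l, were picked after their values were seen. Pathway genes could be named at 10 CPM or more in any gate and past 1.5-fold, or as ligands and receptors. Not every pathway gene that qualified is named, so a gene left out is not thereby unchanged. The members and lists were chosen with earlier results of these data known. Alternatives changed 1 choice at a time: the barcode filter, cells in several gates, deep or shallow cells, weighting, scaling, called sex, leukocyte-marked cells, the most abundant member, the lymphatic split, the UMI minimum and the fold. Leaving out cells with a Cd74 UMI was chosen after seeing the data. The tools were pandas 2.3.3, numpy 2.4.6, matplotlib 3.10.9 and scipy 1.17.1 under Python 3.11.15. One result on a pathway gene is not reported here.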

Additional observations from a re-analysis of the deposited data

Results flagged for a closer look

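In 3 cases the list ratios of male-called and female-called cells of the same libraries lay past 1.5-fold in opposite directions, and the difference between the sexes was not tested. Opposite signs in which 1 sex was within 1.5-fold, such as those of the gamma-type list with genotype in low lymphatic cells and fibroblasts, are not among them. In keratinocytes, between adult WT and adult Lang-DTA, the log2 ratio of the type I-type list was -1.87 in male-called and 0.73 in female-called cells, and that of the gamma-type list was -1.50 and 0.72. In the collagen-rich cells of the Col2a1 gate, between young and adult WT, the log2 ratio of the type I-type list was 0.66 in male-called and -0.67 in female-called cells, on 10 and 6 adult UMIs. The keratinocyte UMIs of these lists sat in few cells, and 85.9% and 75.3% of the gamma-type UMIs in thinned adult WT and adult Lang-DTA keratinocytes were in the 5% of cells that held most.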

How the results depend on the processing

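No paired analysis was possible because each condition is 1 library and the labels give no replicate numbers. Log2 ratios in low lymphatic cells were, for the type I-type list with genotype (0.79 as reported), 1.06 without the 5% of cells with most UMIs, 0.15 in male-called, 1.07 in female-called, 0.52 without the most abundant member and 1.36 in all Prox1 cells. The type I-type ratio with age (-0.24) was 0.62 without its most abundant member. The gamma-type ratio with age (1.26) was 1.38 with cells in several gates kept, 1.02 without the deepest cells, 1.03 with cells weighted equally, 1.37 under median-of-ratios scaling, 1.56 in male-called, 0.92 in female-called, 0.75 without the most abundant member, 1.33 in all Prox1 cells and 1.17 without cells holding Cd74. The gamma-type ratio with genotype (-0.09) took in the same order the values -0.18, 0.52, 0.24, -0.16, -0.81, 0.41, 0.10, -0.45 and -0.27. For high over low cells in Langerin-DTA, the type I-type ratio (0.87) was 1.34 in male-called cells, 0.61 without the most abundant member and 1.02 at 8 or more against 0 UMIs of Gdf15 and Gpnmb. The gamma-type ratio there (-0.76) was -0.62 without the deepest cells, -0.47 with equal weights, -0.65 under median-of-ratios, -0.55 in male-called cells, -0.43 without the most abundant member, -0.69 at 8 against 0 and -0.61 without cells holding Cd74. The Col2a1 gate's gamma-type ratio with genotype was -0.14 without the deepest cells.

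The gates with a higher type I-type list in adult WT (1) were 2 with cells in several gates kept and in male-called cells and 3 without the most abundant member, and those with a higher gamma-type list (4) were 2 in female-called cells. For Langerin-DTA, the type I-type gates (4) were 2 without the deepest cells, and the gamma-type gates (1) were 0 without them and in male-called cells and 2 in female-called cells. At 2-fold the member counts in low lymphatic cells were 10 higher and 0 lower with age (2.84% and 4.16% of all genes compared), 7 and 3 with genotype (5.58% and 3.85%), and 6 and 5 for high over low Langerin-DTA cells (9.71% and 10.9%). Of the other list ratios, 204 moved by no more than their counting interval, 81 moved further and 1 that was past 1.5-fold changed sign. Depth limits each ratio with under 15 UMIs in a library.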

Other observations

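Some gates held single cells that stood apart. Among adult WT low lymphatic cells 14 Ifng UMIs were in 2 of 1281 cells, 12 of them in 1. In adult WT keratinocytes 7 UMIs of type I interferon ligands were in 1 of 2340 cells. Among Langerin-DTA high lymphatic cells 1 cell held 151 type I-type UMIs, and another count, of Ifit1, reached 114 in a single cell. In blood endothelial cells of Langerin-DTA the highest Cxcl10 count in 1 cell was 335, against 110 in adult WT and 18 in young WT.

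Class II genes had no single direction with age in wild-type keratinocytes. Cd74, H2-Ab1, H2-Aa and H2-Eb1, which load and present peptides to helper T cells, had ratios of 0.491, 0.279, 0.287 and 0.392 in adult over young WT, but the log2 ratios were -0.85, -1.62, -1.80 and -1.07 in male-called and 1.19, 0.17, 1.04 and 0.71 in female-called cells. By contrast, B2m (189, 448 and 535 CPM), Nlrc5 (22.8, 56.5 and 58.7 CPM) and Psmb8 (9.42, 33.4 and 30.6 CPM) were lowest in young WT. In high lymphatic cells B2m was at 259, 589 and 1535 CPM, Irf8 at 44.5, 47.1 and 128, and Socs3 at 581, 526 and 117, with the libraries in the order used above.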
